A study of Mus musculus with 24 samples.

Results

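The genes described here are 10 components of blood coagulation and of its inhibition in the mouse choroid: F3, F5, F7, F10, F13a1, Tfpi, Tfpi2, Thbd, Procr and F2r. They are 10 of the 56065 genes in the expression table. The list was drawn up because F7 and F10 were high in the libraries from laser-treated eyes and close to 0 in the others, so the list was chosen by the laser values of F7 and F10, and these are given as a description, without a test. The other 8 genes were placed beside them by their role in the pathway. All 10 genes were matched by symbol and Ensembl identifier and had a mean of at least 10 normalized counts over the 24 libraries.

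Coagulation starts when tissue factor (F3), a membrane protein of cells outside the bloodstream, meets factor VII (F7) and the pair activates factor X (F10). Activated factor X forms thrombin together with its cofactor factor V (F5), and thrombin turns fibrinogen into fibrin, switches on factor XIII, which cross-links the fibrin (F13a1 encodes its A subunit), and signals to cells through the receptor PAR1 (F2r). Tissue factor pathway inhibitor (Tfpi) blocks the initiating step, Tfpi2 encodes a related protease inhibitor of the extracellular matrix, and thrombomodulin (Thbd) with the endothelial protein C receptor (Procr) directs thrombin to the anticoagulant protein C. The liver makes most of the soluble factors, and macrophages can also make several of them.

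RNA of the choroid, the vascular layer behind the retina, was sequenced in 24 libraries from wild type mice and from Ceacam1-/- mice, which lack the adhesion molecule CEACAM1. There were 4 wild type and 4 Ceacam1-/- libraries without laser, and 9 wild type and 7 Ceacam1-/- libraries with laser. Per the labels the laser was meant to induce choroidal neovascularization, the growth of new vessels from the choroid, with 6 spots per eye of 150 mW, 200 µm and 100 ms from a frequency-doubled Nd:YAG laser under ketamine and xylazine. The time between laser and collection, the age and the sex of the animals are not given for the libraries. The study describes adult mice, with an age that holds unless stated otherwise, and its methods state that both sexes were used. They give a C57BL/6J background, a homozygous deletion of exons 1 and 2 of Ceacam1, and wild type littermates as controls. The study describes no laser experiment, so it does not say whether these details hold for the laser libraries. Values are normalized counts, which are estimated reads divided by factors for library size and transcript length. They summed to between 23717571 and 28563124 in the wild type and between 23704346 and 25940731 in the Ceacam1-/- libraries with laser, and to between 23979741 and 27093809 and between 23819561 and 35094410 in the libraries without laser. The labels do not say whether the libraries came from separate animals, although the study counts those without laser as mice, so p-values measure only the spread between libraries.

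Ceacam1 itself was checked first. Its normalized counts were 958, 5027, 1242 and 4596 in the wild type libraries 21, 22, 26 and 27 without laser, and 405, 505, 508 and 1171 in the Ceacam1-/- libraries 23, 24, 25 and 28. With laser they ran from 774 over a median of 996 to 8367 in wild type and from 67.8 over a median of 335 to 905 in Ceacam1-/- libraries. The genotypes therefore overlapped in both conditions. The ratio of the Ceacam1-/- mean to the wild type mean was 0.200 with laser and 0.219 without. Without the Ceacam1-/- laser libraries 14, 15 and 18, described next, the genotypes with laser did not overlap (ratio 0.201). The values are per gene and include the exons outside the deletion, so this check of the genotype labels is a partial one.

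The Ceacam1-/- laser libraries 14, 15 and 18 stood apart from the other 4. The summed normalized counts of the photoreceptor genes Gnat1, Pde6b and Sag were 422883, 238613 and 416558 in them, and ran from 3554 to 61280 in the Ceacam1-/- laser libraries 4, 5, 6 and 7 and from 3436 to 81662 in the wild type laser libraries. Among the libraries without laser the sum was 228284, 39158, 4956 and 113695 in the wild type and 246999, 11500, 1736 and 8453 in the Ceacam1-/- libraries. The 6 endothelial markers, led by Plvap in the other groups, summed to between 6474 and 12254 in libraries 14, 15 and 18 and to between 16933 and 27180 in the other 4 Ceacam1-/- laser libraries. Tests of the members and of the marker lists that include these 3 libraries are therefore given with and without them. How far retinal tissue in the samples contributed to the differences was not tested.

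F7, the protease that tissue factor binds, was close to absent without laser. Its normalized counts were 3.35, 0.986, 0 and 0 in the wild type libraries 21, 22, 26 and 27 and 0, 0, 3.10 and 0 in the Ceacam1-/- libraries 23, 24, 25 and 28. With laser they ran from 79.7 over a median of 226 to 301 in wild type, and were 183, 143, 229, 106, 86.5, 29.3 and 19.5 in the Ceacam1-/- libraries 4, 5, 6, 7, 14, 15 and 18. Every laser library was above every library without laser in both genotypes, and within the Ceacam1-/- laser libraries the 3 lowest were 14, 15 and 18.

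F10, whose product F7 activates, was low but above 0 in every library without laser. It was listed at 1.88, 2.20, 4.78 and 4.37 normalized counts in the wild type and at 4.36, 9.21, 5.76 and 3.84 in the Ceacam1-/- libraries. With laser it ran from 47.9 over a median of 83.7 to 184 in wild type and was 98.7, 135, 177, 160, 45.6, 44.7 and 40.1 in Ceacam1-/- libraries 4, 5, 6, 7, 14, 15 and 18. Again no laser library reached down to a library without laser, and libraries 14, 15 and 18 were the lowest of their group. The ratio of the group means of F10 was 31.2 in wild type (103 ± 42.9 against 3.31 ± 1.48, SD, n = 9 and 4) and 17.3 in Ceacam1-/- mice (100.2 ± 58.3 against 5.79 ± 2.42, SD, n = 7 and 4). The latter ratio was 24.6 without libraries 14, 15 and 18. On the scale of log2(normalized count + 1) the laser difference was 6.65 in wild type and 5.92 in Ceacam1-/- mice for F7, and 4.55 and 3.72 for F10. No ratio is given for F7, which was listed at 0 in 5 of the 8 libraries without laser, and its log2 difference depended on the value added, being 4.05 and 3.21 when 10 was added. In these whole tissue samples more cells that transcribe a gene and more RNA per cell cannot be told apart.

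**Figure D1:**
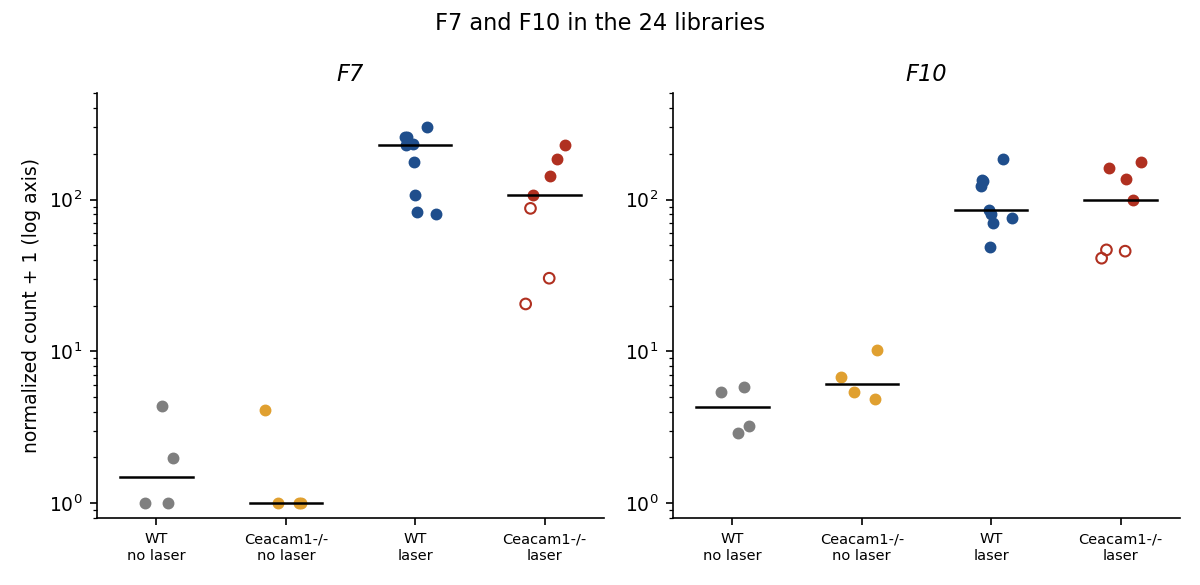
Normalized counts plus 1 of F7 (left) and F10 (right) in each library on a log axis, by genotype (WT, wild type) and laser, with the group median as a bar. Open circles are the Ceacam1-/- laser libraries 14, 15 and 18. All laser libraries, from 19.5 normalized counts of F7 and 40.1 of F10 upwards, lie above all libraries without laser, which reach 3.35 and 9.21.

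F7 and F10 are neighbours on chromosome 8. In the GENCODE annotation of GRCm39, F7 (ENSMUSG00000031443, 8 exons in its canonical transcript) covers positions 13076002 to 13085809 on the plus strand and F10 (ENSMUSG00000031444, 9 exons) covers 13087293 to 13106676 on the same strand, so that 1483 bases separate the end of F7 from the start of F10. The other protein-coding genes within 100 kb are Mcf2l, a guanine nucleotide exchange factor, upstream, and Proz, Pcid2 and Cul4a downstream. Proz encodes protein Z, the cofactor of an inhibitor of activated factor X, and Cul4a a scaffold of ubiquitin ligases. None of the 4 passed the test for laser in either genotype. In wild type mice their log2 laser differences from limma were -0.45 for Mcf2l, -1.37 for Proz, -0.20 for Pcid2 and 0.11 for Cul4a, with adjusted p = 0.566, 0.368, 0.449 and 0.687. The values in Ceacam1-/- mice were 0.05, 0.53, 0.11 and 0.19, with adjusted p = 0.960, 0.766, 0.720 and 0.491. When libraries 14, 15 and 18 were left out they were -0.71, -0.16, 0.05 and 0.01 (limma adjusted p = 0.254, 0.952, 0.900 and 0.975), so that the direction turned for Mcf2l and Proz, neither of which passed in either fit. Proz, which lies 34.6 kb from the start of F7, had 37.8, 14.1, 4.36 and 23.8 normalized counts in the wild type libraries without laser and between 0 and 25.9 with laser. Its laser libraries and its libraries without laser overlapped.

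**Figure D2:**
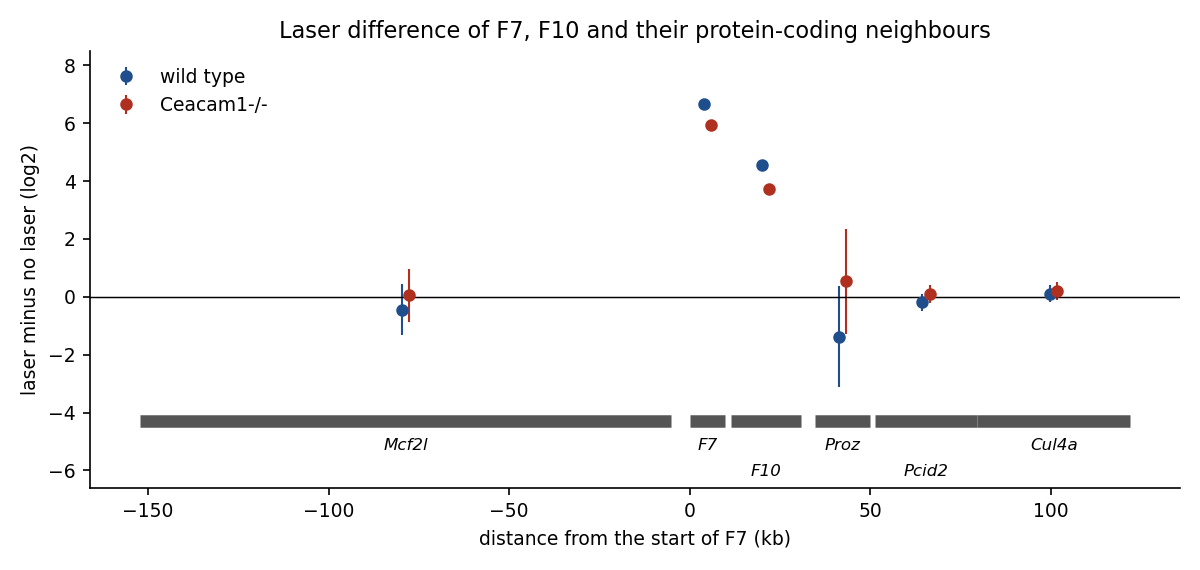
Laser difference (log2, laser minus no laser) of F7, F10 and the 4 protein-coding genes within 100 kb, with 95% intervals for these 4, placed at the middle of each gene by the distance from the start of F7 in kb. Grey bars show the extent of the genes. F7 and F10 stand between 3.72 and 6.65, and the intervals of Mcf2l, Proz, Pcid2 and Cul4a include 0 in both genotypes, with all 7 Ceacam1-/- laser libraries in the fit. The fit without libraries 14, 15 and 18 is not drawn, and in it the Ceacam1-/- values of Mcf2l and Proz are -0.71 and -0.16.

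The promoter windows of the pair are shown because both genes were high in the same libraries. They are the 250 bases before the RefSeq start of each gene, from a RefSeq promoter table of GRCm38.p6, placed on GRCm39 by an exact match at chr8:13075784-13076033 for F7 and chr8:13087058-13087307 for F10 on the plus strand. The RefSeq starts lie 32 bases (F7) and 15 bases (F10) into the GENCODE genes. Capitals mark the reverse complement of AGGTCA, the half-site that many nuclear receptors bind.
F7: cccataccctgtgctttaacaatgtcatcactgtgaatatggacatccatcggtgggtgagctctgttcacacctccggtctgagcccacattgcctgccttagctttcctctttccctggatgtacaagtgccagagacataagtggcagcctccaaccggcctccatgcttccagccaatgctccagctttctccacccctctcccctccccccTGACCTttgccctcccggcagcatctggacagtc
F10: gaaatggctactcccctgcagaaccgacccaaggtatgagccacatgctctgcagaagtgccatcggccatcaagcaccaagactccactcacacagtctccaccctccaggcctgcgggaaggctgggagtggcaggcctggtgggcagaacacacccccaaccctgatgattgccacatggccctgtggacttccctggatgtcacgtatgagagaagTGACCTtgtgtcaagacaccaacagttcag
AGGTCA occurred once in each window, on the minus strand, 34 to 29 bases before the start of F7 and 30 to 25 bases before that of F10. It was searched after the windows had been read, and 14.0% of the 32536 different mouse promoter windows of 250 bases hold it on at least 1 strand. Of the 7 motifs listed for the search, none matched either window on either strand. They were TGANTCA (AP-1), GAGGAAG (PU.1 and other ETS factors), a form of the NF-kB motif, GGGCGG (the GC box), TTGCNNAA (C/EBP), CAAAGTCCA (HNF4) and GGGTGTGG (KLF), where N is any base, and they occur in 6.73%, 10.7%, 0.360%, 33.0%, 9.57%, 0.387% and 3.20% of the windows. TGANTCA and AGGTCA end in the same letters, TCA. The search covered the 250 bases shown and no strings other than these. Other forms of the sites, that of HNF4 among them, were not searched and may be present.

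F3, the initiator, was abundant with and without laser. Its normalized counts were 1988, 4436, 2760 and 2490 in the wild type libraries without laser and 1943, 2196, 2294 and 2783 in the Ceacam1-/- libraries. With laser they ran from 1855 over a median of 3211 to 3938 in wild type and from 971 over a median of 1925 to 2801 in Ceacam1-/- libraries. The laser groups overlapped the groups without laser in both genotypes. The log2 laser difference was 0.14 (standard error 0.25, limma, Benjamini-Hochberg adjusted p = 0.765) in wild type and -0.33 (standard error 0.26, adjusted p = 0.493) in Ceacam1-/- mice, and -0.14 without libraries 14, 15 and 18. F3 (ENSMUSG00000028128) lies on chromosome 3 from 121516610 to 121528820.

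F5, the cofactor of activated factor X, was low in every library. It was listed at 34.7, 23.3, 22.2 and 27.6 in the wild type and at 36.6, 35.8, 44.8 and 68.1 in the Ceacam1-/- libraries without laser. With laser it ran from 14.0 over a median of 52.0 to 69.6 in wild type and from 13.04 over a median of 28.9 to 77.9 in Ceacam1-/- libraries. In wild type mice 6 of the 9 laser libraries exceeded all 4 without laser, and in Ceacam1-/- mice 1 of 7 did. The log2 laser differences, 0.62 (standard error 0.44, adjusted p = 0.441 from limma) in wild type and -0.38 (standard error 0.46, adjusted p = 0.677) in Ceacam1-/- mice, did not pass the test. The highest F5 values of the Ceacam1-/- laser libraries were in libraries 15 and 18, and without libraries 14, 15 and 18 the difference was -0.72 (adjusted p = 0.392, which ran from 0.392 to 0.895 over 21 alternatives).

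F13a1, the fibrin cross-linking enzyme, rose with laser in wild type mice. It had 184, 470, 322 and 708 normalized counts in the wild type libraries without laser, and from 742 over a median of 1550 to 2022 with laser. The lowest laser library was above the highest library without laser. The ratio of the means was 3.45 (1452 ± 426 against 421 ± 224, SD, n = 9 and 4), with a log2 difference of 1.88 (standard error 0.44, adjusted p = 0.0107 from limma). F13a1 in Ceacam1-/- mice had 139, 545, 222 and 278 normalized counts without laser and 1684, 939, 1243, 1504, 343, 472 and 354 in the laser libraries 4, 5, 6, 7, 14, 15 and 18. Libraries 4 to 7 lay above the libraries without laser and libraries 14, 15 and 18 within their range. The log2 difference was 1.57 (standard error 0.45, adjusted p = 0.0536) over all 7 laser libraries and 2.32 (standard error 0.40, adjusted p = 0.000631) without libraries 14, 15 and 18.

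F2r, the thrombin receptor PAR1, had 861, 1597, 1395 and 1048 normalized counts in the wild type libraries without laser and from 1830 over a median of 2536 to 4035 with laser, again without overlap. The ratio of the means was 2.24 (2750 ± 799 against 1225 ± 332, SD, n = 9 and 4). F2r rose by a log2 difference of 1.16 (standard error 0.32, adjusted p = 0.0381 from limma). Of 22 alternatives, 4 lost that call. Ceacam1-/- mice had 816, 1151, 860 and 1068 normalized counts without laser and 3069, 2909, 2287, 2121, 697, 1027 and 959 in the laser libraries 4, 5, 6, 7, 14, 15 and 18. The same 4 libraries were high and the same 3 were not. The log2 difference was 0.75 (standard error 0.34, adjusted p = 0.213) over all 7 and 1.41 (standard error 0.25, adjusted p = 0.000637) without the 3 libraries. F13a1 and F2r both lie on chromosome 13, from 37051152 to 37234277 and from 95737382 to 95755177, on the minus strand.

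Among the inhibitors, Tfpi2 showed the largest laser difference. It had 26.1, 29.5, 48.1 and 47.1 normalized counts in the wild type libraries without laser, and from 133 over a median of 220 to 388 with laser. There was no overlap, the ratio of the means was 6.32 (238 ± 85.9 against 37.7 ± 11.5, SD, n = 9 and 4), and the log2 difference was 2.60 (standard error 0.59, adjusted p = 0.00944 from limma). Tfpi2 in Ceacam1-/- mice had 38.5, 37.8, 5.34 and 40.2 normalized counts without laser, the low value being library 25, and 218, 156, 295, 241, 27.5, 90.0 and 23.1 in the laser libraries 4, 5, 6, 7, 14, 15 and 18. Libraries 14 and 18 fell within the range of the libraries without laser and the other 5 lay above it. The log2 difference was 2.08 (standard error 0.62, adjusted p = 0.0593) over all 7 and 3.14 (standard error 0.48, adjusted p = 0.000168) without libraries 14, 15 and 18.

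Tfpi, which acts on the complex of tissue factor and F7, had 406, 617, 758 and 395 normalized counts in the wild type libraries without laser and from 811 over a median of 993 to 1371 with laser. The groups did not overlap, and the ratio of the means was 1.89 (1028 ± 178 against 544 ± 176, SD, n = 9 and 4), but the log2 difference of 0.96 (standard error 0.36) did not pass the test over all genes (adjusted p = 0.125 from limma). Tfpi in Ceacam1-/- mice had 526.2, 727, 535 and 755 normalized counts without laser and 1314, 1431, 1464, 1318, 285, 508 and 358 in libraries 4, 5, 6, 7, 14, 15 and 18. Among the Ceacam1-/- libraries, laser libraries 4 to 7 lay close together and above all others. Libraries 14, 15 and 18 were below every Ceacam1-/- library without laser. The log2 difference was accordingly 0.33 (standard error 0.37, adjusted p = 0.651) over all 7 and 1.14 (standard error 0.20, adjusted p = 0.000859) without the 3 libraries. In the fit without them Tfpi also passed in wild type (adjusted p = 0.000968), with the same difference and a standard error of 0.17. Over 22 alternatives its adjusted p in wild type ran from 0.000132 to 0.343.

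Thbd and Procr, the receptors of the protein C pathway on endothelium, overlapped between laser and no laser in every comparison. Thbd had 1154, 1381, 1507 and 915 normalized counts in the wild type libraries without laser and from 1165 over a median of 1791 to 2403 with laser, a log2 difference of 0.49 (standard error 0.41, adjusted p = 0.521 from limma). Ceacam1-/- mice had 1227, 1913, 1076 and 1141 without laser and 2611, 1886, 2360, 3122, 388, 905 and 486 with laser. Libraries 4, 6 and 7 exceeded all libraries without laser and libraries 14, 15 and 18 were below all of them. The log2 difference was -0.01 (adjusted p = 0.996) over all 7 and 0.91 (standard error 0.23, adjusted p = 0.0141) without the 3 libraries. Procr had 338, 411, 679 and 361 normalized counts in the wild type libraries without laser and from 469 over a median of 596 to 937 with laser, a log2 difference of 0.56 (standard error 0.37, adjusted p = 0.410). Procr in Ceacam1-/- mice had 243, 577, 331 and 665 without laser and 938, 642, 745, 741, 180, 366 and 213 with laser, a log2 difference of 0.15 (adjusted p = 0.859) over all 7 and 0.86 (standard error 0.30, adjusted p = 0.0752, which ran from 0.0752 to 0.984 over 22 alternatives) without the 3 libraries. Tfpi, Thbd and Procr all lie on chromosome 2, and Tfpi2 lies on chromosome 6.

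**Figure D3:**
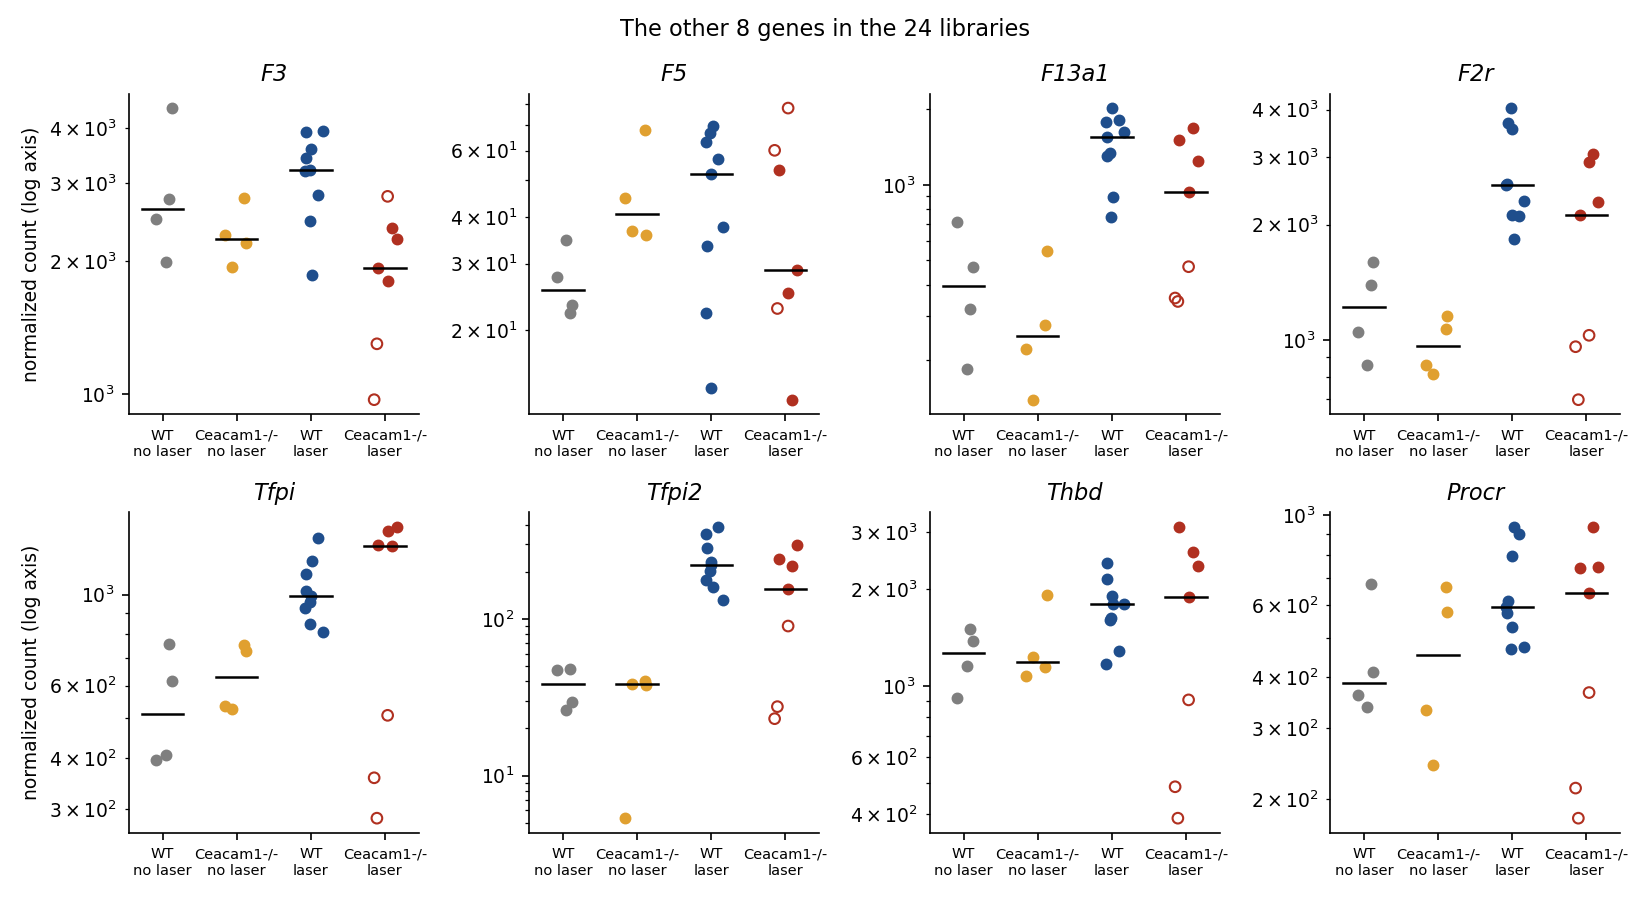
Normalized counts of the other 8 genes in each library (log axes, a separate scale for each gene), by genotype (WT, wild type) and laser, with the group median as a bar. Open circles are the Ceacam1-/- laser libraries 14, 15 and 18, which lie within or below the range of the Ceacam1-/- libraries without laser for F13a1, F2r, Tfpi and Thbd, and on both sides of it for F5 (22.8 to 77.9).

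Over the 8 genes other than F7 and F10, 3 passed the test for laser in wild type mice, all of them higher (F13a1, F2r and Tfpi2), where 5.28% of the 19950 genes tested passed in either direction and 4.23% were higher. The groups did not overlap for 4 of the 8 (the same 3 and Tfpi), and laser was higher without overlap for 4.5% of all genes. The median log2 difference of the 8 was 0.79, and that of all genes tested was -0.10. Without wild type library 21 none of the 8 passed, with log2 differences of 1.54 for F13a1, 2.44 for Tfpi2 and 1.00 for F2r (limma adjusted p = 0.0846, 0.0526 and 0.165, 4 of the 8 at an unadjusted p under 0.05), and 479 of all genes passed in place of 1053. F2r also missed the threshold without wild type library 26 (limma adjusted p = 0.0560) or 27 (0.128) and with no filter on low values (0.0646). Over the 22 alternative settings the adjusted p ran from 0.000925 to 0.0846 for F13a1, from 1.55e-05 to 0.0526 for Tfpi2 and from 2.9e-05 to 0.165 for F2r.

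In Ceacam1-/- mice 0 of the 8 passed over all 7 laser libraries with limma, and 3 of them (F13a1, Tfpi2 and F2r) had an unadjusted p under 0.05, as had 3997 of the 19950 genes tested. Of all genes, 3.72% passed and 2.07% were higher. This background of 742 genes was itself unsteady, at 148 to 2488 genes when 1 of the 8 libraries without laser or library 14 was left out (lowest without library 25, highest without library 23) and 38 when the fit held only the Ceacam1-/- libraries. The median log2 difference of the 8 was 0.24, beside 0.02 for all genes. Without libraries 14, 15 and 18, an exclusion chosen after seeing the data, 5 of the 8 passed and all 5 were higher (F13a1, Tfpi2, F2r, Tfpi and Thbd), where 10.2% of 19723 genes passed and 7.6% were higher. In that fit 4 of the 8 passed in wild type mice, where 10.8% of all genes did. The fit kept Ceacam1-/- library 23 without laser, whose photoreceptor sum (246999) was above that of library 15 (238613). It also kept wild type libraries 21 (228284) and 27 (113695) without laser, the highest photoreceptor sums in wild type. Library 21 is the one without which none of the 8 passed in wild type mice. Of the single libraries left out, which were the 8 without laser and Ceacam1-/- laser library 14, F13a1 passed without wild type library 21 (limma adjusted p = 0.0477), Ceacam1-/- library 24 (0.0473) or 14 (0.0299), and Tfpi2 passed without Ceacam1-/- library 23 (0.0309) or 14 (0.0251). The adjusted p in Ceacam1-/- mice ran from 0.000631 to 0.255 for F13a1, from 0.000168 to 0.349 for Tfpi2, from 0.000637 to 0.490 for F2r, from 0.000859 to 0.860 for Tfpi and from 0.0141 to 1 for Thbd over the 22 alternatives. With a photoreceptor score as a covariate, also chosen after seeing the data, F13a1 and Tfpi2 passed in Ceacam1-/- mice (adjusted p = 0.00803 and 0.0256), where 4.48% of all genes did. Over all 7 laser libraries 0 of the 8 were higher without overlap, where 1.17% of all genes were. Without the 3 libraries 4 of the 8 were (F13a1, Tfpi2, F2r and Tfpi), where 9.18% of all genes were. The wild type and Ceacam1-/- comparisons share no libraries but share 1 estimate of the spread.

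**Figure D4:**
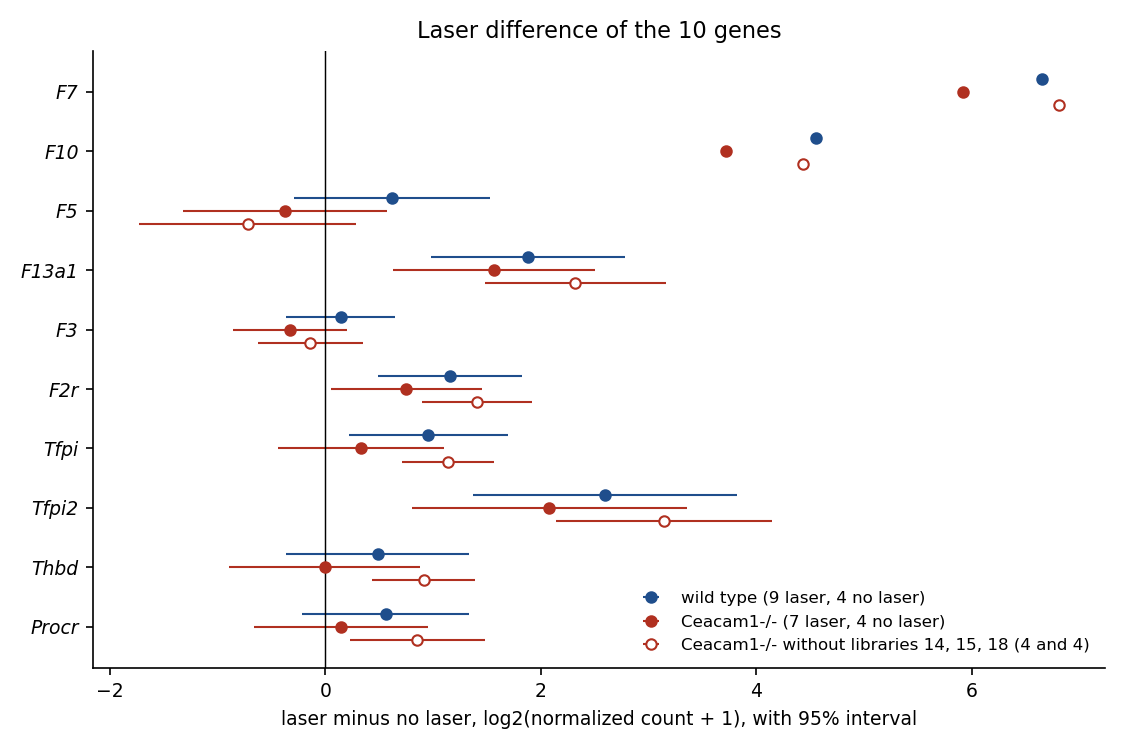
Laser difference (laser minus no laser, log2 of the normalized count plus 1) of the 10 genes, with 95% intervals for the 8 other than F7 and F10, in wild type mice, in Ceacam1-/- mice, and in Ceacam1-/- mice without libraries 14, 15 and 18. Numbers of libraries are given in the key. F7 and F10, which were listed for these values, lie between 3.72 and 6.81, and leaving out the 3 libraries moves F13a1, F2r, Tfpi, Tfpi2, Thbd and Procr to the right and F5 to the left.

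Whether laser acted differently in the genotypes was tested as an interaction in the model of all 24 libraries. None of the 8 genes other than F7 and F10 passed (limma), none had an unadjusted p under 0.05, and 0% of the 19950 genes tested passed, although 1241 had an unadjusted p under 0.05. The interaction furthest from 0 among the 8 was -0.996 for F5 (95% interval from -2.31 to 0.32). F7 and F10, which passed the filter on low values only through the laser libraries, had values of -0.73 and -0.83, given without a test. When libraries 14, 15 and 18 were left out no gene passed either, F5 was the only one of the 8 with an unadjusted p under 0.05 (interaction -1.34, adjusted p = 0.999 from limma), and the interaction turned positive for F7, F13a1, Tfpi, Tfpi2, Thbd, Procr and F2r, with values between 0.16 and 0.55.

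The genotypes were also compared directly. Among the 16 laser libraries none of the 8 genes other than F7 and F10 passed with limma, where 0.0202% of 19757 genes did. All 8 overlapped between the genotypes, where 0.0759% of all genes were higher and 0.0709% lower in Ceacam1-/- mice without overlap. An unadjusted p under 0.05 was found for 4 members and for 4479 of the 19757 genes. The 4 members were all lower in Ceacam1-/- mice: F3 (log2 difference -0.76), Tfpi2 (-1.09), F13a1 (-0.84) and F2r (-0.71). The adjusted p values were 0.114, 0.203, 0.184 and 0.189. None of the marker lists given below had a marker that passed. At an unadjusted p under 0.05 were 4 of 4 skeletal muscle and 3 of 4 pigment epithelium markers. So were 3 of 4 pericyte and smooth muscle and 3 of 7 recruited monocyte markers. Their median log2 differences were -1.33, -1.23, -0.69 and -0.61, beside 1.91 for photoreceptor markers. Without libraries 14, 15 and 18 the 4 counts were 1, 0, 0 and 2. In that fit 5 of 5 erythroid and 4 of 5 fibroblast markers were at an unadjusted p under 0.05 in limma, where 1623 of 19316 genes were. Their median log2 differences were 1.65 and 0.88, and none of them passed. With all laser libraries in the fit, 0 of 5 erythroid and 0 of 5 fibroblast markers were at an unadjusted p under 0.05. The part of these cells was not tested. F3 had the smallest exact permutation p of the 8, 0.00437 (two-sided, 7 against 9 libraries), which became 0.0874 after Benjamini-Hochberg adjustment. The adjustment ran over 20 comparisons of 10 genes in 2 conditions, which count F7 and F10, whose own p-values are not given. Its mean was 1917 ± 631 normalized counts in Ceacam1-/- and 3156 ± 684 in wild type laser libraries (SD, n = 7 and 9), a ratio of 0.607. With libraries 14, 15 and 18 left out, again none of the 8 passed, where 0.0104% of all genes did. The difference of F3 was then -0.57 (adjusted p = 0.352 from limma, exact permutation p = 0.0196, adjusted 0.143), those of F13a1, Tfpi2 and F2r were -0.08, -0.02 and -0.05, and those of Tfpi and Thbd were 0.44 and 0.53 (adjusted p = 0.336 and 0.417, the lowest of their alternatives, which reached 0.921 and 0.982). The exact permutation p was 0.00839 for Tfpi and 0.0224 for Thbd, both 0.143 after adjustment. Over the 14 alternatives the adjusted p of F3 ran from 0.0236 to 0.5256, and weighting the libraries by their quality was the setting that brought it under 0.05.

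Without laser 0 of the 8 members that could be tested passed (F7 and F10 had a mean under 10 in these 8 libraries), 0 had an unadjusted p under 0.05, and 0% of 20057 genes passed with limma, where 307 had an unadjusted p under 0.05. The study itself reported some differentially expressed genes between the genotypes in choroid without laser, using DESeq2 with sex as a covariate. The 0% is therefore the result of this limma fit without sex, and it may miss differences. F5 was the only member whose genotypes did not overlap, since the lowest Ceacam1-/- library, at 35.8 normalized counts, was above the highest wild type library, at 34.7. That pattern was seen in 0.922% of all genes. The means were 46.3 ± 15.1 and 26.96 ± 5.66 normalized counts (SD, n = 4 each), a ratio of 1.72 and a log2 difference of 0.73 (adjusted p = 0.999 from limma). The two-sided exact permutation p was 0.0286, the smallest that 4 against 4 libraries allow. It was 0.270 after adjustment over the 20 comparisons, which count F7 and F10. With laser the genotypes overlapped in F5.

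Levels of different genes were compared per kilobase of the canonical transcript. F3 stood first in every group, with a mean of 1463 ± 532 normalized counts per kb in wild type libraries without laser and 1582 ± 343 with laser (SD, n = 4 and 9), and did not overlap with the next gene in any group other than the Ceacam1-/- laser libraries (961 ± 316). Thbd, Procr, F2r and Tfpi followed without laser, between 254 and 333 on average in wild type, and neighbours in that order overlapped. F13a1 came next (106 ± 56.7), then Tfpi2 (23.9 ± 7.31), F5 (3.57 ± 0.750) and F10 (1.22 ± 0.546), and F7 was last. With laser the order in wild type libraries was F3, F2r (618 ± 180), Tfpi, Thbd, Procr, F13a1 (367 ± 108), Tfpi2 (151 ± 54.5), F7 (103 ± 44.8), F10 (38.1 ± 15.8) and F5 (6.13 ± 2.68). From F2r to F10 each gene overlapped with the next, and F5, which had been above F7 and F10 without laser, was below both without overlap. The level of F7 per kb exceeded that of F10 in 9 of 9 wild type laser libraries, by a ratio between 1.56 and 5.34 (median 2.45), and in 4 of 7 Ceacam1-/- laser libraries, by a ratio between 1.54 and 2.76. In the other 3, libraries 7, 15 and 18, the ratio was between 0.709 and 0.960.

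Other genes of coagulation were read from a list of 44, of which 26 had a mean of at least 10 over the 24 libraries. In wild type mice 1 of the 26 passed the test for laser, where 5.28% of all genes did. It was Lman1, which carries factors V and VIII out of the endoplasmic reticulum, with a log2 difference of 0.60 (standard error 0.15, adjusted p = 0.0192 from limma), and none of the list passed without wild type library 21, 22 or 27. In Ceacam1-/- mice 0 of the 26 passed with limma, where 3.72% of all genes did, and 4 had an unadjusted p under 0.05, where 3997 of 19950 genes had one. The median log2 difference of the 26 was 0.38 in wild type and 0.22 in Ceacam1-/- mice. Without libraries 14, 15 and 18, 27 genes of the list were tested. Then 3 of the 27 passed in wild type mice (Anxa5, a phospholipid-binding protein, Lman1, and Vkorc1, which recycles vitamin K) and 6 in Ceacam1-/- mice (Anxa5, Vkorc1, Ggcx, Mcfd2, Entpd1 and F8), all higher, where 10.8% and 10.2% of all genes passed. Ggcx, the carboxylase that F7 and F10 need to bind membranes, had a log2 difference of 0.55 in wild type (adjusted p = 0.314) and 0.75 in Ceacam1-/- mice (adjusted p = 0.186), and of 1.30 (adjusted p = 0.00173) in Ceacam1-/- mice without the 3 libraries.

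Other factors that the liver makes had low or moderate values. Prothrombin (F2) was listed at 2.87, 20.8, 0 and 13.2 normalized counts in wild type libraries without laser and at 0 to 14.0 with laser. Factor IX (F9) had 0 in the 4 wild type libraries without laser and 0 to 12.5 with laser, and in Ceacam1-/- mice 0 to 3.14 without and 0.920 to 15.9 with laser. Protein C (Proc) was above 0 in 2 of 24 libraries and fibrinogen beta (Fgb) in 1, a wild type laser library with 2.35. F2, F9, Proc and Fgb had a mean under 10 and were not tested. Antithrombin (Serpinc1), which inhibits thrombin and factor Xa, was higher than these, with group means of 198 normalized counts without and 144 with laser in wild type and of 262 and 250.6 in Ceacam1-/- mice. Heparin cofactor II (Serpind1) had means of 42.5 and 40.6 in wild type and of 109 and 44.5 in Ceacam1-/- mice. The Ceacam1-/- laser means without libraries 14, 15 and 18 were 170.1 for Serpinc1 and 68.6 for Serpind1. Plasma prekallikrein (Klkb1) had a mean of 13.1 without and with laser in wild type and of 26.6 and 62.7 in Ceacam1-/- mice, the last of which was 16.6 without libraries 14, 15 and 18. Serpinc1, Serpind1 and Klkb1 did not pass the test for laser in either genotype (limma adjusted p between 0.364 for Serpinc1 in wild type and 0.865 for Klkb1 in wild type), nor in Ceacam1-/- mice without the 3 libraries (0.199 for Serpinc1, 0.982 for Serpind1 and 0.736 for Klkb1). Protein S (Pros1) and von Willebrand factor (Vwf), which endothelial cells make, were abundant in all groups. Their log2 laser differences were 0.66 and 0.47 in wild type (adjusted p = 0.404 and 0.585 from limma) and 0.23 and -0.47 in Ceacam1-/- mice (adjusted p = 0.808 and 0.616). The Ceacam1-/- differences without libraries 14, 15 and 18 were 1.01 for Pros1 and 0.20 for Vwf (limma adjusted p = 0.101 and 0.858), so that the lower value of Vwf with laser was not seen in that fit.

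Markers of several cell types moved with laser beside these genes. All 7 macrophage markers were detected, and they summed to 3496, 4392, 7242 and 5115 normalized counts in wild type and to 5247, 5628, 5573 and 6246 in Ceacam1-/- libraries without laser. With laser the sum ran from 13192 over a median of 15828 to 22659 in wild type and was 15660, 16045, 19688, 16007, 6320, 7083 and 4340 in Ceacam1-/- libraries 4, 5, 6, 7, 14, 15 and 18. Libraries 14, 15 and 18 had the lowest macrophage sums and the lowest F10 values of the 16 laser libraries. This was not particular to macrophages. The same libraries were lowest in the endothelial, pigment epithelium, melanocyte, fibroblast, pericyte and smooth muscle, mast cell and recruited monocyte sums. They were not all lowest in the erythroid, platelet, hepatocyte, skeletal muscle or neutrophil sums. For F7 the order held only in part. Libraries 18 and 15 were lowest, but library 14, at 86.5, was above wild type libraries 17 (81.8) and 19 (79.7). The macrophage sums of wild type libraries 17 and 19 were 13192 and 14015. The most abundant marker was Csf1r without laser and C1qa with laser. With limma, 6 of the 7 passed in wild type and 4 of the 7 in Ceacam1-/- mice, all higher, where 4.23% and 2.07% of all genes were called higher. It was 7 of 7 and 6 of 7 without libraries 14, 15 and 18, all higher, where 7.82% and 7.6% of all genes were.

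The 7 markers of recruited monocytes, led by Lyz2, summed to between 6265 and 13044 normalized counts in wild type and between 4902 and 13296 in Ceacam1-/- libraries without laser. With laser they summed to between 33318 and 104395 in wild type, to between 43951 and 66402 in Ceacam1-/- libraries 4 to 7, and to 19613, 24703 and 11998 in libraries 14, 15 and 18. With limma 6 of the 7 were called in wild type and 5 of the 7 in Ceacam1-/- mice (6 and 4 without libraries 14, 15 and 18), all higher. The 6 platelet and megakaryocyte markers, led by Pf4, summed to between 273 and 886 in wild type without laser and to between 1231 and 4988 with laser, and to between 324 and 998 and between 1126 and 2337 in Ceacam1-/- libraries. Of the 4 that could be tested 1 passed in each genotype, and without libraries 14, 15 and 18 it was 2 in wild type and 1 in Ceacam1-/- mice, all higher. The 8 hepatocyte markers stayed low in every group, between 49.9 and 405 in sum, with Cyp2e1 as the most abundant. Alb, which encodes albumin and is the defining gene of that list, was at 0 in all wild type libraries without laser and in all Ceacam1-/- laser libraries, and Serpina1a was at 0 in all 24. The 5 fibroblast markers, with Col1a1 or Dcn as the most abundant, summed to between 76960 and 176624 in wild type libraries without laser and between 172932 and 367765 with laser. In Ceacam1-/- mice they summed to between 33184 and 206278 without laser, to between 352019 and 599838 in laser libraries 4 to 7, and to 37843, 97647 and 74108 in libraries 14, 15 and 18. With limma 1 of the 5 passed in each genotype, and without libraries 14, 15 and 18 it was 3 of 5 in wild type and 5 of 5 in Ceacam1-/- mice, all higher. The 4 skeletal muscle markers, led by Acta1, had a mean sum of 268968 without and 162939 with laser in wild type and of 341840 and 73724 in Ceacam1-/- mice, and none of the 4 passed, with 0 in wild type and 4 in Ceacam1-/- mice at an unadjusted p under 0.05 in limma. None passed without libraries 14, 15 and 18 either, with 0 and 2 at an unadjusted p under 0.05. The 4 neutrophil markers had mean sums of 51.7 without and 212 with laser in wild type and of 63.2 and 296 in Ceacam1-/- mice, and 1 of the 2 that could be tested, S100a8, passed in each genotype and was higher with laser, in both fits. None of the markers of hepatocytes (4 tested), erythroid cells (5), retinal pigment epithelium (4), melanocytes (4), pericytes and smooth muscle (4), mast cells (4) or photoreceptors (3) passed with limma in either genotype, and an unadjusted p under 0.05 was found in Ceacam1-/- mice for 3 of the pigment epithelium and 1 of the mast cell markers, and for none of these markers in wild type. In the fit without libraries 14, 15 and 18, 1 melanocyte marker passed in Ceacam1-/- mice (Pmel, log2 difference 1.56, limma adjusted p = 0.0418) and 1 pericyte marker in wild type (Pdgfrb, 0.81, adjusted p = 0.0434), both higher. In that fit an unadjusted p under 0.05 was found in wild type for 1 pigment epithelium, 1 melanocyte and 2 pericyte and smooth muscle markers, and in Ceacam1-/- mice for 2 erythroid, 1 melanocyte and 2 pericyte and smooth muscle markers. The part of monocytes, macrophages, platelets, fibroblasts and muscle in the laser values of these genes was not tested. Endothelial markers, whose cells carry Thbd, Procr and Tfpi, had no member among 6 that passed in either genotype with limma, and 2 in wild type and 0 in Ceacam1-/- mice had an unadjusted p under 0.05. None of the 6 passed without libraries 14, 15 and 18 either, but 5 in wild type and 3 in Ceacam1-/- mice had an unadjusted p under 0.05, where 5099 and 4717 of 19723 genes had one. Their median log2 difference in Ceacam1-/- mice went from -0.05 to 0.48, in the fit in which Tfpi and Thbd passed. The part of endothelial cells in the values of Tfpi and Thbd was not tested.

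**Figure D5:**
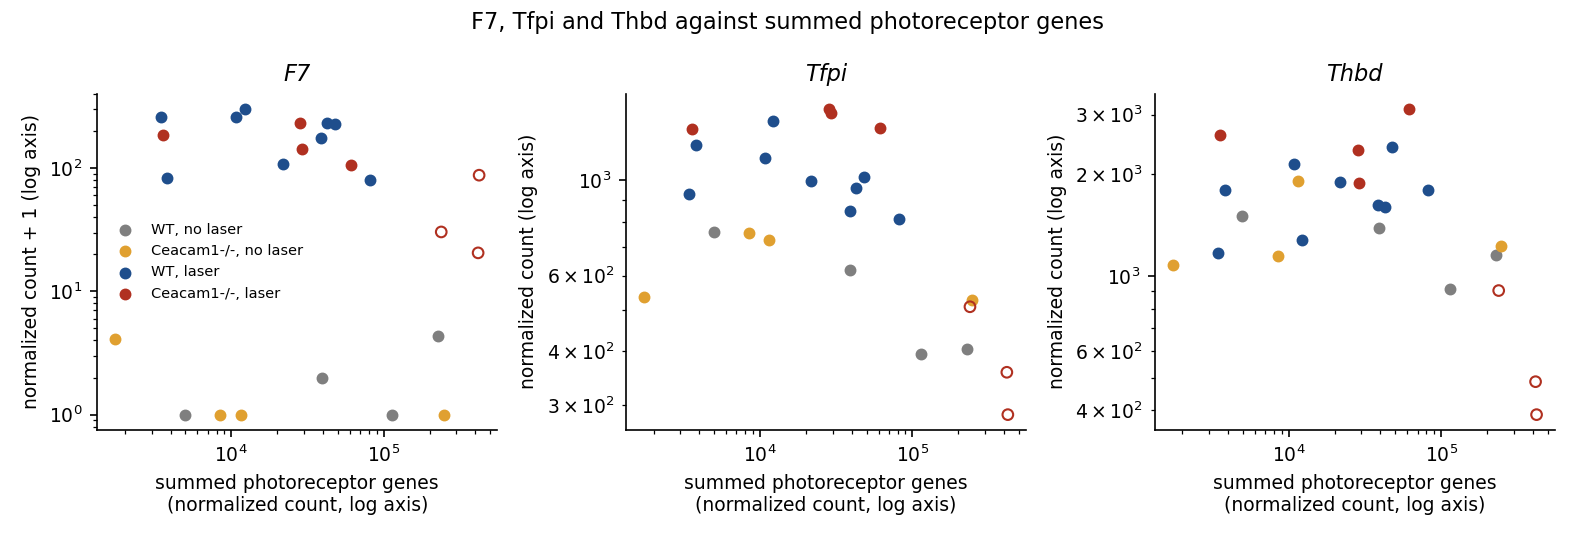
Normalized counts of F7 (plus 1), Tfpi and Thbd against the summed normalized counts of 3 photoreceptor genes (Gnat1, Pde6b and Sag) in each of the 24 libraries (log axes). Open circles are the Ceacam1-/- laser libraries 14, 15 and 18, with photoreceptor sums of 238613 to 422883, F7 values of 19.5 to 86.5, and Tfpi and Thbd values below those of the other laser libraries.

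Genes whose pattern was most like that of F7 and F10 were sought over the 16 laser libraries, after the mean of each genotype was taken away, among 19949 other genes. For F7 they were Cd53, Spp1, Cd84, Bcl2a1b and Ctss, with Pearson's r of log2 values between 0.93 and 0.94. For F10 they were Calr (0.93), Tbxas1 (0.91), Fcgr4 (0.90), Msr1 (0.90) and Angptl4 (0.90). Of these, Cd53, Cd84, Fcgr4 and Msr1 encode surface proteins of leukocytes or macrophages and Ctss a lysosomal protease. The others, Spp1, Bcl2a1b, Tbxas1, Angptl4 and Calr, the gene most like F10, were not assigned to a cell type. The points share the depth and tissue content of their library, and without libraries 14, 15 and 18 the same values were between 0.83 and 0.88 for the 5 genes of F7 and between 0.75 and 0.89 for those of F10. F7 and F10 themselves correlated with an r of 0.77, and 0.57 without the 3 libraries. Between F7 and the other members r was highest for Tfpi2 (0.74, and 0.72 without the 3 libraries) and was negative for F5 (-0.51 and -0.23), while for Thbd it changed sign, from 0.52 to -0.30. These correlations describe 16 and 13 libraries and are given without a test.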

How the data were processed

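The deposited table holds signal values, normalized counts of 56065 genes in 24 libraries, which the authors made from SMART-Seq reads with FastQC 0.11.5, salmon 1.10.3 on GRCm39 and DESeq2 1.44.0, dividing estimated reads by factors for library size and transcript length. The study's methods state that 1 outlier sample was removed and do not name it. They do not say over which libraries the deposited values were normalized. Reads were not recovered, so no count model was run. Genes with a mean of at least 10 were compared on log2(value + 1) with limma 3.58.1 in R 4.3.3 (variance trend, Benjamini-Hochberg adjustment over all genes tested, threshold 0.05), laser and interaction over 24 libraries, genotype over 16 or 8. For genotype, each member also had an exact permutation test of its log2 values (two-sided). F7 and F10 were counted in the adjustment of that test, and their own p-values are not given. Sex, a covariate in the study's model, is not labelled and was left out. The method was tested on simulated data. Symbols and positions came from GENCODE for GRCm39, which matched 99.1% of genes.

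The members and all lists were chosen with earlier results of these data known. Named are the 10 members, those of 44 other coagulation genes that passed for laser (and F2, F9, Fgb, Proc, Pros1, Proz, Vwf and Ggcx in any case), protein-coding genes within 100 kb, the 5 genes most alike F7 and F10, Ceacam1, and the leading or absent genes of each marker list. Anxa5, Vkorc1, Mcfd2, Entpd1 and F8 did not pass in the main analysis and are named from an alternative chosen after seeing the data, as are Pmel and Pdgfrb. Serpinc1, Serpind1 and Klkb1 were named after their values were seen. One gene of the marker lists is not reported here, and the sums and covariate leave it out. Alternatives changed the pseudocount (0.5, 10), filter, scaling, variance model, weights, covariates and libraries. Python 3.11.15 with pandas 2.3.3, scipy 1.17.1 and matplotlib 3.10.9 made tables and figures.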

Additional observations from a re-analysis of the deposited data

Results flagged for a closer look

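In 40 groups of the 10 genes, 2 groups held a library that stood far from the other libraries of its group, where chance gives about 1 in 20. The groups were 4 genotype and laser groups for each gene. F7 was at 3.10 normalized counts in the Ceacam1-/- library 25 without laser and at 0 in the other 3 libraries of that group, so that any value above 0 would have stood apart, and values near 0 without laser are among those by which F7 was chosen. Tfpi2 was at 5.34 normalized counts in the same library and between 37.8 and 40.2 in the other 3. Library 25 had the largest sum of values of all 24 libraries, 35094410, and the lowest photoreceptor sum, 1736.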

How the results depend on the processing

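No paired analysis was possible because the library numbers are not shared between groups. Over 23 settings, 1067 values kept their direction and their side of the threshold or stayed within the spread, 22 became called, 6 lost their call, 47 moved further and 46 changed sign, among them Thbd for laser in Ceacam1-/- mice without libraries 14, 15 and 18, which also became called. The cause of the changes was not tested. With 4 libraries in each group without laser, single libraries decided several calls, and values near 0 (F7 and F10 without laser) depend on the value added before the log.

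The main counts were 3 of 8 members, 1053 of all genes and 1 other coagulation gene for laser in wild type, 0, 742 and 0 for laser in Ceacam1-/- mice, 0 members and 4 of all genes for genotype with laser, and 0 for the interaction and for genotype without laser. Leaving out in turn each of the 8 libraries without laser and Ceacam1-/- laser library 14, and no other laser library alone, gave 0 to 3 members, 479 to 1257 of all genes and 0 to 2 other coagulation genes in wild type. The members fell to 0 without library 21, all genes to 479 without library 21 and 554 without library 27, and the other coagulation genes to 0 without library 21, 22 or 27 and rose to 2 without library 14. In Ceacam1-/- mice the same 9 omissions gave 0 to 2 members, 148 to 2488 of all genes and 0 to 1 other coagulation genes. The members were 1 without library 21, 23 or 24 and 2 without library 14. All genes were 148 without library 25, 255 without library 24 and 2488 without library 23. The other coagulation genes were 1 without library 14 or 23. For genotype without laser 0 to 1 of all genes passed, the 1 without library 24.

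With no filter 437 of all genes passed for laser in Ceacam1-/- mice. With a mean of at least 50, 2 of 23 other coagulation genes passed for laser in wild type and 1 of 7 members in Ceacam1-/- mice. The counts of all genes for laser at that filter are not given here. For genotype with laser 2 of all genes passed. For genotype without laser 1 of all genes passed with upper-quartile scaling, 1 without a variance trend and 1 with array weights. Array weights, which weight libraries by quality, called 6 members, 6505 of all genes and 10 other coagulation genes in wild type. They called 4, 3551 and 5 in Ceacam1-/- mice, and for genotype with laser 1 member (F3) and 297 of all genes. They moved the split of all genes in wild type from 844 higher and 209 lower to 3238 higher and 3267 lower. When each fit held no other libraries than those it compared, 2274 of all genes and 3 other coagulation genes passed in wild type, against 38 of all genes in Ceacam1-/- mice. With all 24 libraries in the fit, 9 of all genes passed for genotype with laser. Without libraries 14, 15 and 18, 2128 of all genes and 3 other coagulation genes passed in wild type, 5 members, 2005 of all genes and 6 other coagulation genes in Ceacam1-/- mice, and 2 of all genes for genotype with laser. With the photoreceptor covariate 2 members and 893 of all genes passed in Ceacam1-/- mice. The last 2 settings were chosen after seeing the data.

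Log2 differences of members that changed sign were all without a call in the main analysis. Over the same omissions, the laser difference of F3 in wild type ran from -0.0201 (without library 21) to 0.3659, that of Procr in Ceacam1-/- mice from -0.11 (without library 23) to 0.3762, and that of Thbd from -0.0972 to 0.28 (positive without library 14 or, at 0.18, 24). The interaction of F13a1 ran from -0.6233 to 0.034 (without library 24, and 0.02 without library 21). For genotype without laser, Tfpi2 ran from -0.8076 to 0.0917 (without library 25), Thbd from -0.087 (without library 24, and -0.04 without library 27) to 0.20, and Procr from -0.2564 to 0.23 (without library 23, and 0.08 and 0.18 without libraries 25 and 26).

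The laser difference of Thbd in Ceacam1-/- mice was 0.0018 with upper-quartile scaling, 0.46 with array weights, 0.91 without libraries 14, 15 and 18 (then called) and 0.31 with the photoreceptor covariate. The interaction was 0.11 for F13a1 and 0.19 for Tfpi2 with array weights. Without libraries 14, 15 and 18 it was 0.16 for F7, 0.44 for F13a1, 0.18 for Tfpi, 0.55 for Tfpi2, 0.43 for Thbd, 0.29 for Procr and 0.26 for F2r. With the photoreceptor covariate it was 0.29 for F13a1, 0.0376 for Tfpi, 0.0199 for Tfpi2, 0.0292 for Thbd, 0.35 for Procr and 0.0755 for F2r. For genotype with laser, the differences of F10, Tfpi, Thbd and Procr were 0.30, 0.28, 0.25 and 0.18 with array weights, 0.54, 0.44, 0.53 and 0.26 without libraries 14, 15 and 18, and 0.23, 0.13, 0.0489 and 0.0664 with the photoreceptor covariate, and that of F10 was 0.049 with a Y-linked covariate. For genotype without laser, Procr was 0.0157 with quantile normalization and 0.41 with array weights.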
